A study of Bos taurus with 15 samples.

Results

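The cytosolic ribosomal protein genes of bovine (Bos taurus) blastocysts were taken by name: symbols that begin with RPL or RPS followed by a number, with the stalk genes RPLP0, RPLP1 and RPLP2 and with RPSA. The rule found 67 of the 17259 genes in the deposited table, of which 33 encode proteins of the large subunit, 27 encode proteins of the small subunit and 7 are paralogs, that is, second copies with names of their own (RPL3L, RPL7L1, RPL10L, RPL22L1, RPL26L1, RPS27L and RPS4Y1). Of 77 names of standard cytosolic ribosomal proteins listed for the check, 60 are in the table, and the others, such as RPS6, RPL5, RPL10 and RPL41, are not analysed here. Poly(A) RNA had been sequenced from blastocysts at day 7 in 3 groups of 5 libraries. Automatic blastocysts grew in SOF culture medium from zygotes whose cumulus cells, the follicle cells around the oocyte, were stripped by an automated procedure. Manual blastocysts grew in the same medium from zygotes stripped by hand, and in vivo blastocysts were collected from animals. No breed, age or sex is given for any group, and the labels do not state whether a library holds 1 blastocyst or several. Donors, cultures and days of collection are not given, so a p-value here speaks of library-to-library spread, which could be technical.

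A ribosome is built from a small subunit, which reads the messenger RNA, and a large subunit, which joins the amino acids, and each holds 1 copy of most of its proteins. The mRNAs of ribosomal proteins are abundant, mostly short, and begin with a 5′ terminal oligopyrimidine tract, through which mTOR signalling sets how strongly they are translated. In early mammalian embryos ribosome production resumes when the embryonic genome becomes active, and a blastocyst makes its own ribosomes for rapid growth.

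Library totals ranged from 17963944 to 41974214 estimated counts, with a median of 27598852. Between 6977 and 12611 genes had 10 or more counts in a library. This number was under 9000 in automatic 2 and 4, in manual 2, and in in vivo 2 and 4, which are called the 5 low-detection libraries. Transcripts of the mitochondrial genome took 8.18% to 14.4% of the counts in these 5 libraries and 3.26% to 9.99% in the other 10. All 6 trophectoderm markers, such as KRT8 and KRT18, are in the table. Levels of markers are summed CPM, counts per 1000000 counts of the library total, without further scaling. The trophectoderm sum was 3601 to 16633 in automatic, 6031 to 33059 in manual and 6698 to 29543 in in vivo libraries. Of 8 cumulus and granulosa markers 7 are in the table, with summed levels of 1.88 to 18.1 CPM, 10.2 to 69.5 CPM and 5.15 to 44.2 CPM in the same groups, and FOXL2 was at 0 in every library. Of 4 blood markers, all in the table, PTPRC was also at 0 in every library. The blood sum was 3.09 to 245 CPM in automatic, 21.4 to 76.3 CPM in manual and 0.166 to 60.2 CPM in in vivo libraries.

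Ribosomal protein genes were measured deeply: 63 of the 67 had 2000 or more counts in every library. Their share of all counts was 4.83%, 9.80%, 4.19%, 7.71% and 7.44% in automatic libraries 1 to 5. It was 5.45%, 9.94%, 5.31%, 7.28% and 9.27% in manual libraries 1 to 5, and 6.76%, 12.5%, 6.19%, 8.81% and 9.0% in in vivo libraries 1 to 5. The groups overlapped widely, with means of 6.79 ± 2.29% (automatic), 7.45 ± 2.13% (manual) and 8.66 ± 2.49% (in vivo), each with its SD over 5 libraries. The lowest share in each group was that of library 3 and the highest that of library 2.

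The share was high where few genes were detected. It was 7.71% to 12.5% in the 5 low-detection libraries (median 9.80%) and 4.19% to 9.27% in the other 10 (median 6.47%). Over the 15 libraries Pearson r with the number of genes at 10 or more counts was -0.784 and Spearman rho was -0.818, given as a description, since both measures come from the same counts. Within the 10 other libraries r was -0.698 and rho -0.685, and r was -0.746 after leaving out the 2 libraries farthest from their median. When every library was thinned to 16298708 counts without the ribosomal protein genes, r was -0.785 over the 15 libraries. The mitochondrial share moved with the ribosomal share as well, with r = 0.836 over 15 libraries and 0.727 within the 10, and its part in the result was not tested. In these bulk libraries fewer cells of a type and less RNA per cell cannot be told apart.

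**Figure D1:**
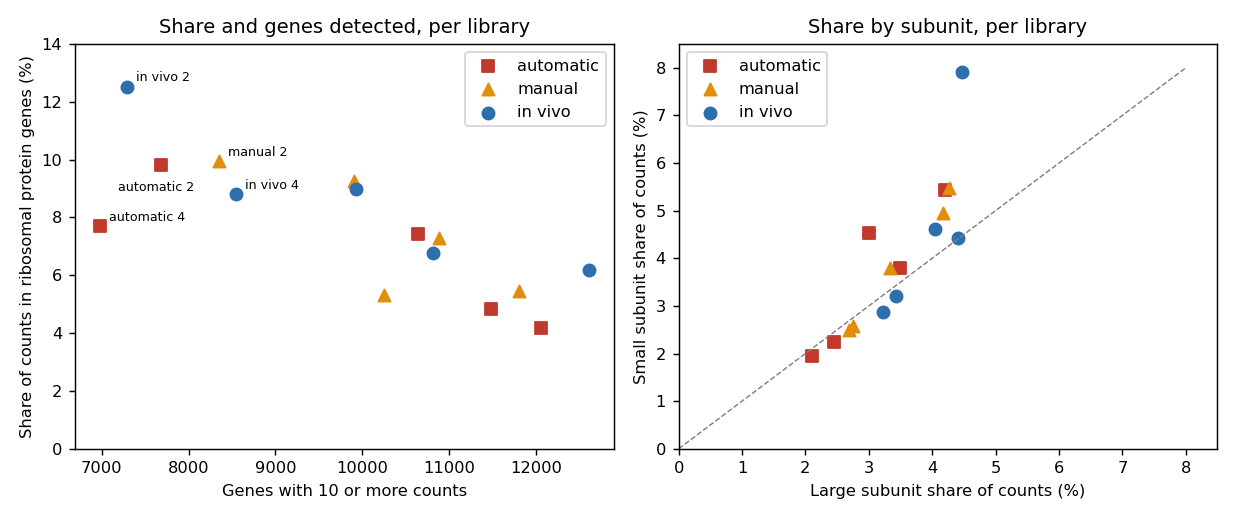
Left, share of estimated counts in the 67 ribosomal protein genes (percent) against the number of genes with 10 or more counts, with 1 point per library in the automatic, manual and in vivo groups and names on the 5 low-detection libraries, which lie at 7.71% to 12.5%. Right, small-subunit share against large-subunit share (percent of counts, dashed line where both are equal), with in vivo 2 apart at 7.91% for the small subunit.

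The small subunit took most of this range. Its genes held 1.96% of the counts in automatic 3 and 7.91% in in vivo 2, while the large subunit genes ranged from 2.11% to 4.48% in the same 2 libraries. In in vivo 2 a few genes dominated: the 5 genes with the most counts held 41.0% of all ribosomal protein counts there, against 21.4% to 27.4% in the other libraries. The single gene RPS27A held 12.1%. These shares are of counts and are not corrected for transcript length.

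Single genes behaved very differently, and 20 of them spanned more than 10-fold over the libraries in TMM-scaled CPM. TMM is a factor on the library size that corrects for differences in composition. Levels of single genes are given on this scale unless library size is named. RPS27A, which encodes a fusion of ubiquitin and a small-subunit protein, lay at 1034, 8686, 818, 8012 and 3308 CPM in automatic, 1114, 10848, 1236, 3513 and 5903 CPM in manual and 1745, 27896, 1069, 5155 and 3609 CPM in in vivo libraries. RPS29, a small zinc-binding protein of the small subunit, lay at 262, 4156, 247, 3322 and 1139 CPM in automatic, 290.5, 4484, 274, 1254 and 2596 CPM in manual and 584, 19349.7, 369, 2028 and 1434 CPM in in vivo libraries. In both genes in vivo 2, manual 2, automatic 2 and automatic 4 were the 4 highest of the 15 libraries, and the 3 groups overlapped. RPS24, mutated in human Diamond-Blackfan anaemia, lay at 549, 3683, 364, 3477 and 1599 CPM in automatic, 649, 4761, 618, 1546 and 2647 CPM in manual and 792, 15370.5, 691, 2414 and 1648 CPM in in vivo libraries. RPL22, an RNA-binding protein of the large subunit, lay at 125, 1034, 93.5, 597 and 289.6 CPM in automatic, 130.5, 1334, 117, 394 and 545 CPM in manual and 159, 3588, 121, 344 and 344 CPM in in vivo libraries. The same 4 libraries were highest for these genes too, and in all 4 genes the lowest library was automatic 3 and the highest in vivo 2.

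The ratio of the highest to the lowest library was 78.2-fold for RPS29, 42.2-fold for RPS24, 38.4-fold for RPL22 and 34.1-fold for RPS27A. TMM scaling widened these ratios, because in vivo 2 had the lowest factor (0.543) and automatic 3 the highest (1.24). With library size in place of TMM, RPS29 ran from 290 to 10503 CPM and RPS24 from 450 to 8343 CPM. RPL22 then ran from 115 to 1948 CPM and RPS27A from 1011 to 15142 CPM. Over the 64 tested genes detected in every library the TMM-scaled ratio ran from 1.74 to 78.2, with a median of 5.02. It exceeded 10-fold for 20 genes and stayed under 4-fold for 28. In TMM-scaled CPM the highest library was in vivo 2 for 38 genes, and the lowest was automatic 3 for 48. In 8 genes, among them RPL17, RPL21, RPL35A, RPS20 and RPS25, all 5 low-detection libraries lay above all 10 others. No gene showed the opposite. With library size in place of TMM, each of these named genes overlapped through manual 5. RPS23, another of the 8, still separated, with 1195 CPM in automatic 4 against 1137 CPM in manual 5. How many of all genes separate in this way was not counted.

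**Figure D2:**
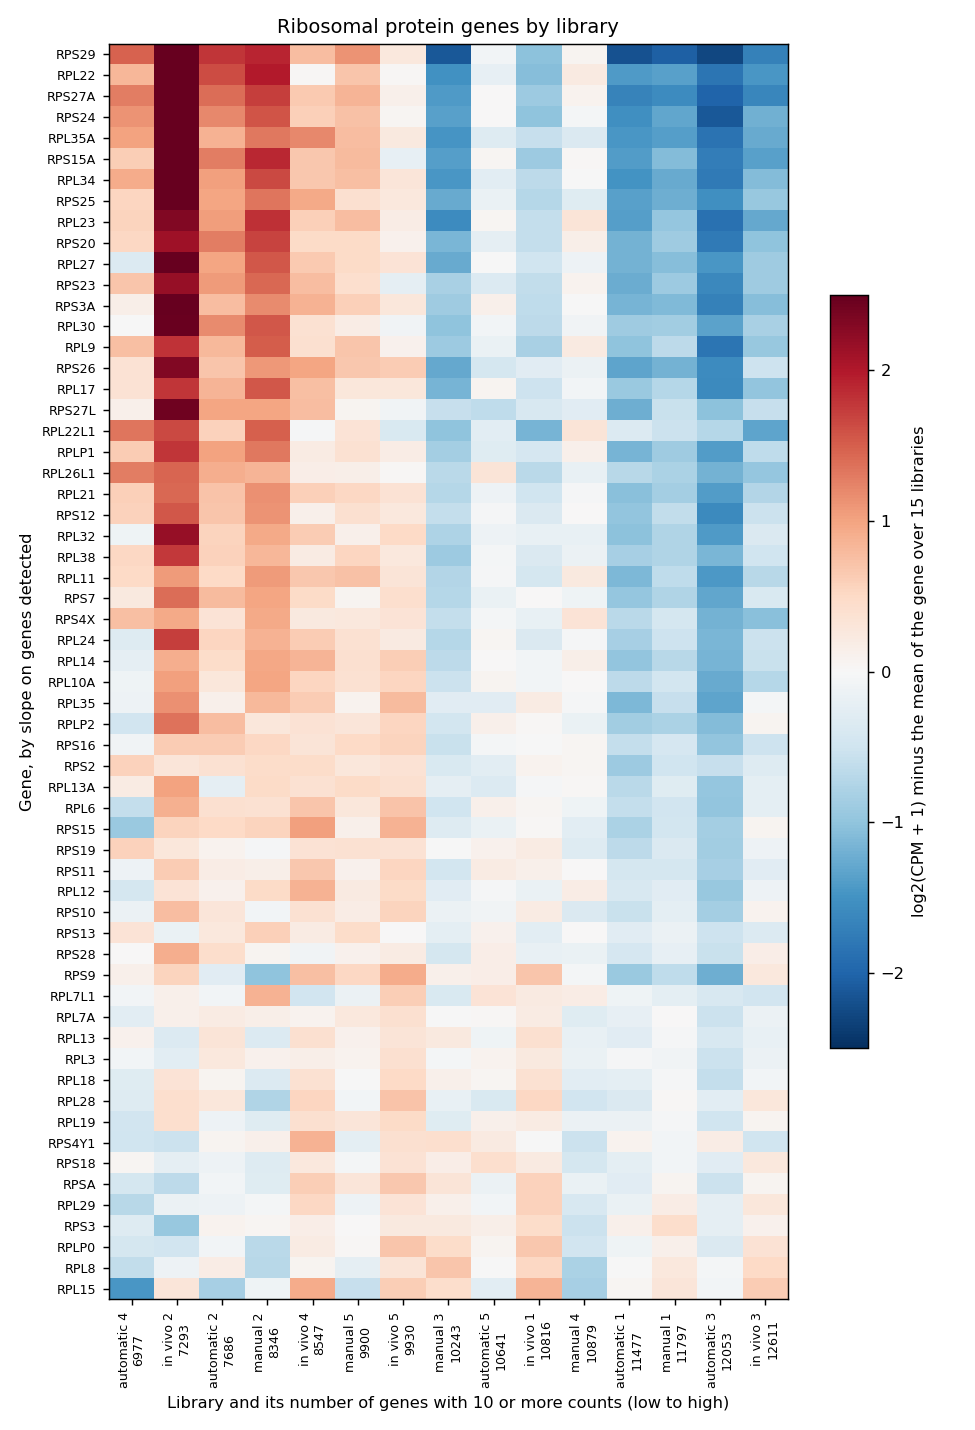
Log2(CPM + 1) of 60 ribosomal protein genes minus the mean of each over the 15 libraries (colour), with genes in rows ordered by slope and libraries in columns ordered by the number of genes with 10 or more counts, low to high. RPL39, RPL3L, RPL10L and some others are left out, and the rows from RPS29 down to RPS25 change from red in low-detection libraries to blue in automatic 3, while rows such as RPL3 stay pale.

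The relation to detection was then fitted gene by gene with edgeR's quasi-likelihood test, within groups, as a slope in log2 CPM per 1000 more genes detected. Of 65 ribosomal protein genes tested, 37 fell as more genes were detected (Benjamini-Hochberg adjusted p under 0.05 over all genes) and 0 rose. Of all 11578 genes tested, 7.86% were called in the same fit, 3.93% lower and 3.93% higher. An unadjusted p under 0.05 was reached by 45 of the 65, against 23.8% of all genes. The fitted slope was below 0 for 58 of the 65, against 35.7% of all genes. The median slope was -0.278 for the ribosomal protein genes and 0.152 for all genes. The count was 35 to 39 when each library was left out in turn. With genes counted after thinning 38 fell, against 4.1% of all genes, and by DESeq2 44 fell, against 7.54% of all genes.

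The fall was seen in both subunits. In the large subunit 18 of 33 genes fell, with a median slope of -0.278. RPL22 had a slope of -0.79 ± 0.11 (edgeR adjusted p = 2.14e-04). RPL35A, another Diamond-Blackfan anaemia gene in humans, had -0.72 ± 0.08 (edgeR adjusted p = 9.35e-05), and lay at 1166 to 6118 CPM in the low-detection libraries, all above the 175 to 1082 CPM of the other 10. With library size in place of TMM these sets overlapped, with automatic 2 at 1102 CPM and manual 5 at 1144 CPM. RPL34 had -0.65 ± 0.08 (edgeR adjusted p = 1.15e-04). RPL11, which with RPL5 and the 5S rRNA can bind the p53 regulator MDM2, had a shallower slope of -0.37 ± 0.06 (edgeR adjusted p = 0.0014) and lay at 228 to 1299 CPM. RPL14 ranged over 919.6 to 4025 CPM, with a slope of -0.29 ± 0.06, and RPL38, which in mice is needed to translate certain Hox mRNAs, over 83.1 to 625 CPM, with -0.37 ± 0.07.

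In the small subunit 16 of 27 genes fell, with a median slope of -0.221. RPS29 had a slope of -0.95 ± 0.12 (edgeR adjusted p = 1.15e-04). RPS27A had -0.78 ± 0.09 (edgeR adjusted p = 9.35e-05) and RPS24 -0.74 ± 0.09 (edgeR adjusted p = 1.15e-04). RPS25, which is used in translation from some internal ribosome entry sites, had -0.63 ± 0.08, and RPS23, which lies at the decoding centre, -0.55 ± 0.07 (edgeR adjusted p = 1.35e-04 and 9.35e-05). RPS25 lay at 2110.2 to 11894 CPM in the low-detection libraries and at 497 to 1895 CPM in the other 10, so the 2 sets did not overlap. With library size in place of TMM they did, with automatic 4 at 1934 CPM and manual 5 at 2004 CPM. RPS3A had -0.55 ± 0.08 (edgeR adjusted p = 3.77e-04), with 1021 to 20088 CPM over the libraries. RPS4X, the copy of RPS4 on the X chromosome, had a smaller slope of -0.33 ± 0.05 (edgeR adjusted p = 5.33e-04).

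**Figure D3:**
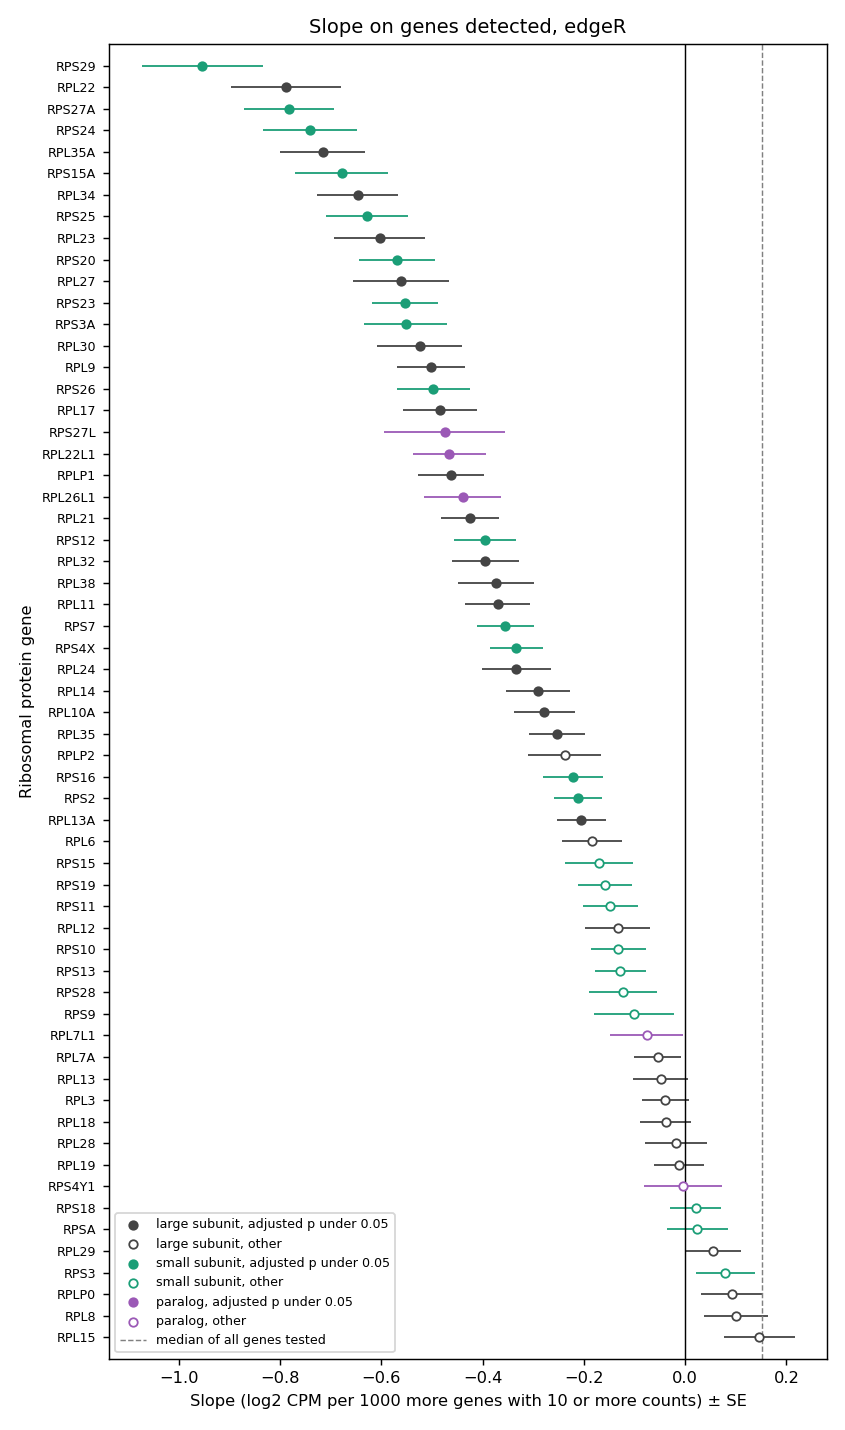
Slope of 60 ribosomal protein genes (RPL39 and some others left out) in log2 CPM per 1000 more detected genes, with bars for the standard error, filled points for an edgeR adjusted p under 0.05, colours for large subunit, small subunit and paralogs, and a dashed line at the median of all genes (0.152). Filled points run from -0.95 (RPS29) to -0.21 (RPL13A), and none lies above 0.

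Other genes of the same 2 subunits did not pass the test. RPL3, which reaches towards the peptidyl transferase centre, lay at 2525, 3096, 1793, 2474 and 2768 CPM in automatic, 2452, 2809.6, 2513, 2304 and 2763 CPM in manual and 3079, 2161, 2346, 2863 and 3418 CPM in in vivo libraries. Its 15 values spanned 1.91-fold and the low-detection libraries lay among the others, with a slope of -0.04 ± 0.05. With library size in place of TMM, in vivo 2 was at 1173 CPM and the other libraries at 2196 to 3480 CPM. RPSA, a small-subunit protein also described as a laminin receptor, lay at 2177, 2545, 1828, 1961 and 2392 CPM in automatic, 2782, 2158, 3349.6, 2358 and 3279 CPM in manual and 3951, 1679.8, 2797, 4089 and 4229 CPM in in vivo libraries. Its slope was 0.02 ± 0.06, and in in vivo 2, where RPS27A was highest, RPSA was at its lowest. RPS3, which sits at the mRNA entry channel, lay at 2254, 2171, 1748, 1631 and 2281 CPM in automatic, 2768, 2109.6, 2426, 1407 and 2072 CPM in manual and 2803, 1059, 2219, 2313 and 2419 CPM in in vivo libraries, also lowest in in vivo 2, with a slope of 0.08 ± 0.06. RPL8 had 0.10 ± 0.06, RPL15 0.15 ± 0.07 and RPS19, the gene most often mutated in human Diamond-Blackfan anaemia, -0.16 ± 0.05 (edgeR adjusted p = 0.363, 0.214 and 0.0769). RPS10 ranged over 201 to 618 CPM, with -0.13 ± 0.05, and RPS28 over 120.4 to 334 CPM, with -0.12 ± 0.07.

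Of the 3 stalk genes, RPLP1 was called. The stalk is the flexible arm of the large subunit that recruits elongation factors, with RPLP0 at its base and RPLP1 and RPLP2 as the acidic proteins bound to it. RPLP1 lay at 326, 1455, 276, 1126 and 589 CPM in automatic, 394, 1829.9, 403, 799.9 and 950.0 CPM in manual and 544, 2517, 468, 839.8 and 832 CPM in in vivo libraries. It was highest in in vivo 2, manual 2 and automatic 2, and its slope was -0.46 ± 0.06 (edgeR adjusted p = 2.38e-04). RPLP2 ranged over 152 to 831 CPM, and its slope of -0.24 ± 0.07 missed the threshold (edgeR adjusted p = 0.0514), which it passed under 11 of 31 other settings. RPLP0 lay at 2093, 2148, 1752, 1647 and 2367 CPM in automatic, 2445, 1414, 3102, 1604 and 2294 CPM in manual and 3593, 1605, 2882, 2598 and 3632 CPM in in vivo libraries. Manual 2 was its lowest library (with library size in place of TMM, in vivo 2 was), and its slope was 0.09 ± 0.06 (edgeR adjusted p = 0.386). The differences between these slopes were not tested.

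Of the 5 paralogs that could be tested, 3 fell. RPL22L1, which in mice is repressed by RPL22, lay at 326, 619, 253, 1053 and 346 CPM in automatic, 284, 1172, 206, 517 and 524 CPM in manual and 185, 1310.3, 165, 404 and 319 CPM in in vivo libraries. Its slope was -0.47 ± 0.07 (edgeR adjusted p = 5.07e-04), so it moved in the same direction as RPL22 over these libraries. RPL26L1, a near copy of RPL26, ranged over 51.4 to 326 CPM, with a slope of -0.44 ± 0.08 (edgeR adjusted p = 0.00132). RPS27L, a relative of RPS27 that p53 induces in human cells, was low throughout, with 45.8 to 228 CPM in the low-detection libraries and 17.3 to 43.5 CPM in the other 10. Its slope was -0.47 ± 0.12 (edgeR adjusted p = 0.0208), and the call was lost without in vivo 2 (slope -0.38, edgeR adjusted p = 0.0890). Counts of such near copies are uncertain, because reads they share are divided by estimation.

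The other paralogs gave no call. RPL7L1, a relative of RPL7, lay at 255 to 649.6 CPM with a slope of -0.08 ± 0.07. RPS4Y1, a relative of RPS4X, was present in all 15 libraries at 257 to 683 CPM, with a slope of -0.00 ± 0.08, while RPS4X ranged over 1197 to 5275 CPM. RPL3L, a striated-muscle copy of RPL3 in mammals, had counts in automatic 2 alone, at 4.79 CPM, and RPL10L, a testis copy of RPL10 in mice and humans, had at most 6 counts in a library. RPL3L and RPL10L were not kept by the filter on low counts. RPL39, a very small large-subunit protein, passed the filter but had 0 counts in 3 libraries and at most 4.82 CPM, in in vivo 2.

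Slopes were also compared between libraries that share no sample. Slopes fitted in the 10 in vitro libraries alone and in the 5 in vivo libraries alone had the same sign for 61 of 65 ribosomal protein genes, with Pearson r = 0.953 and Spearman rho = 0.963 across genes. Over all 11578 genes the sign was the same for 65.1% and r was 0.329. Over the 75 mitochondrial ribosomal protein genes it was the same for 56, with r = 0.595. Genes are not independent replicates, and each keeps its own sequence and length in both sets, so these values are a description. In the in vitro libraries alone 19 ribosomal protein genes fell and 0 rose, against 1.21% of all genes that fell, and the median slope was -0.258. In the in vivo libraries alone 0 were called by edgeR, 34 had an unadjusted p under 0.05, all with slopes below 0 (5.62% of all genes did), and the median slope was -0.283.

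**Figure D4:**
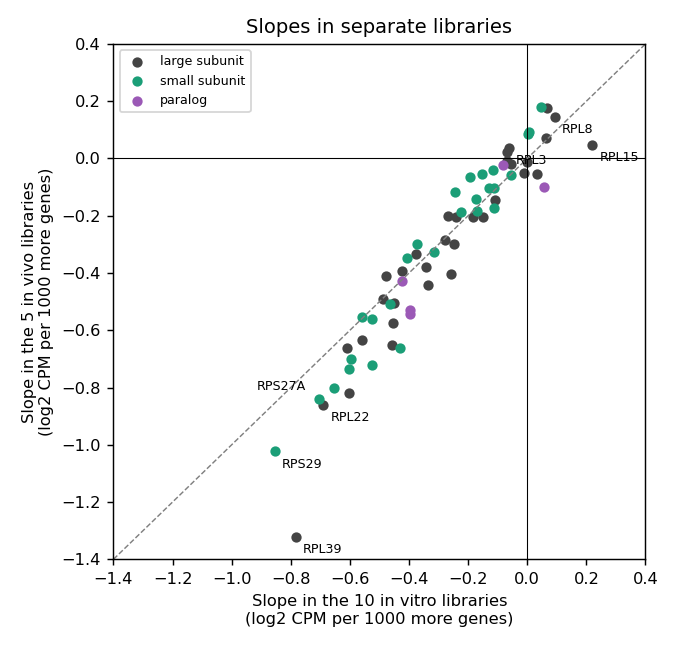
Slope of each of 65 ribosomal protein genes in the 10 in vitro libraries (horizontal axis) and in the 5 in vivo libraries (vertical axis), both in log2 CPM per 1000 more detected genes, with a dashed line where they are equal. RPS29, RPL22 and RPS27A lie at the low end of both axes with RPL39, which is near 0 counts, and RPL15 and RPL8 lie at the high end (r = 0.953).

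The calls changed with the libraries used and with the scaling. Without the 5 low-detection libraries 0 of 65 genes were called, as were 0 of all genes, while 43 had an unadjusted p under 0.05, all lower, against 3.03% of all genes, and the median slope was -0.371. With library size in place of TMM the median slope of all genes shifted by 0.13, 27 ribosomal protein genes fell, against 2.04% of all genes, and RPL15 and RPL8 rose, against 7.59%, with a median difference from all genes of -0.417, against -0.430 with TMM.

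Genes that work with the ribosomal proteins were examined from lists of related functions. Of 23 other genes of the translation machinery, 10 fell with more detected genes and 0 rose, with a median slope of -0.088. FAU, which encodes the small-subunit protein eS30 fused to a ubiquitin-like protein, had -0.31 ± 0.06 (edgeR adjusted p = 0.0022). NACA, a chaperone at the ribosomal exit tunnel, had -0.40 ± 0.08 (edgeR adjusted p = 0.00355). PFDN5, EIF3M, EIF3E, BTF3, EIF2S3 and NAP1L1 were among the others that fell.

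Of 75 mitochondrial ribosomal protein genes, which serve the separate ribosome of the mitochondrion, 18 fell and 1 rose, with a median slope of -0.105. MRPS16 had -0.53 ± 0.06 and MRPL1 -0.74 ± 0.10 (edgeR adjusted p = 9.45e-05 and 2.69e-04). Among genes for making ribosomes the calls were no more frequent than the 7.86% over all genes. Of 41 ribosome biogenesis genes 1 fell, NOP10 of the H/ACA particles that modify rRNA (-0.40 ± 0.11, edgeR adjusted p = 0.026), and 2 rose, among them the nucleolar gene MYBBP1A (0.74 ± 0.17, edgeR adjusted p = 0.0112). Their median slope was 0.087, against 0.152 for all genes. Of 14 genes of RNA polymerase I and its factors 0 were called, with a median of 0.139. UBTF had 0.86 ± 0.40 and TAF1C 1.04 ± 0.53 (edgeR adjusted p = 0.199 and 0.248). Of 17 mTOR and MYC pathway genes 1 fell, the cap-binding factor EIF4E (-0.42 ± 0.08, edgeR adjusted p = 0.00244), with a median of 0.143. EIF4EBP2, an inhibitor of EIF4E, had 0.50 ± 0.17 (edgeR adjusted p = 0.079).

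Culture was compared with development in the animal by setting the mean of the automatic and manual groups against the in vivo group. None of the 65 ribosomal protein genes passed edgeR's test (0 called, against 0.0173% of all genes), and 15 had an unadjusted p under 0.05, all lower in vitro, against 6.13% of all genes in either direction. The fitted log2 difference was below 0 for 63 of 65, against 51.8% of all genes, and its median was -0.488 for the ribosomal protein genes and -0.036 for all genes. DESeq2 and limma-voom called 0, and voom with quality weights called 6 lower, among them RPL15, RPL28, RPLP0 and RPS9, against 0.648% of all genes.

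On TMM-scaled CPM 2 of 65 genes lay lower in vitro without overlap, against 0.276% of all genes, and on CPM scaled by library size alone 0 did. RPL15, a large-subunit protein that was not called in the slope on detected genes, lay at 456, 248, 421, 160.4 and 368 CPM in automatic, 545, 406, 593, 246 and 293 CPM in manual and 789, 541, 679, 834 and 676 CPM in in vivo libraries. The groups overlapped through manual 1 and 3, and the log2 difference was -0.92 ± 0.28 (edgeR adjusted p = 0.553). With library size in place of TMM, in vivo 2 was at 294 CPM for RPL15 and 191 CPM for RPL28, within the in vitro range of each gene. RPL28, which has no counterpart in the yeast Saccharomyces cerevisiae, averaged 229.9 ± 50.6 CPM in automatic, 218 ± 46.2 CPM in manual and 371 ± 41.8 CPM in in vivo libraries (SD, n = 5). RPS9, at the mRNA entry channel, averaged 457 ± 183 CPM in automatic, 529 ± 213 CPM in manual and 904 ± 150.2 CPM in in vivo libraries (SD, n = 5). Differences in the other direction were small in this fit: RPS13 had 0.20 ± 0.24 and RPL22L1 0.15 ± 0.51, the 2 genes with a value above 0 (edgeR adjusted p = 0.999 for each). With 1 library left out, RPL22L1 ranged from -0.086 to 0.98, the highest without in vivo 2.

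**Figure D5:**
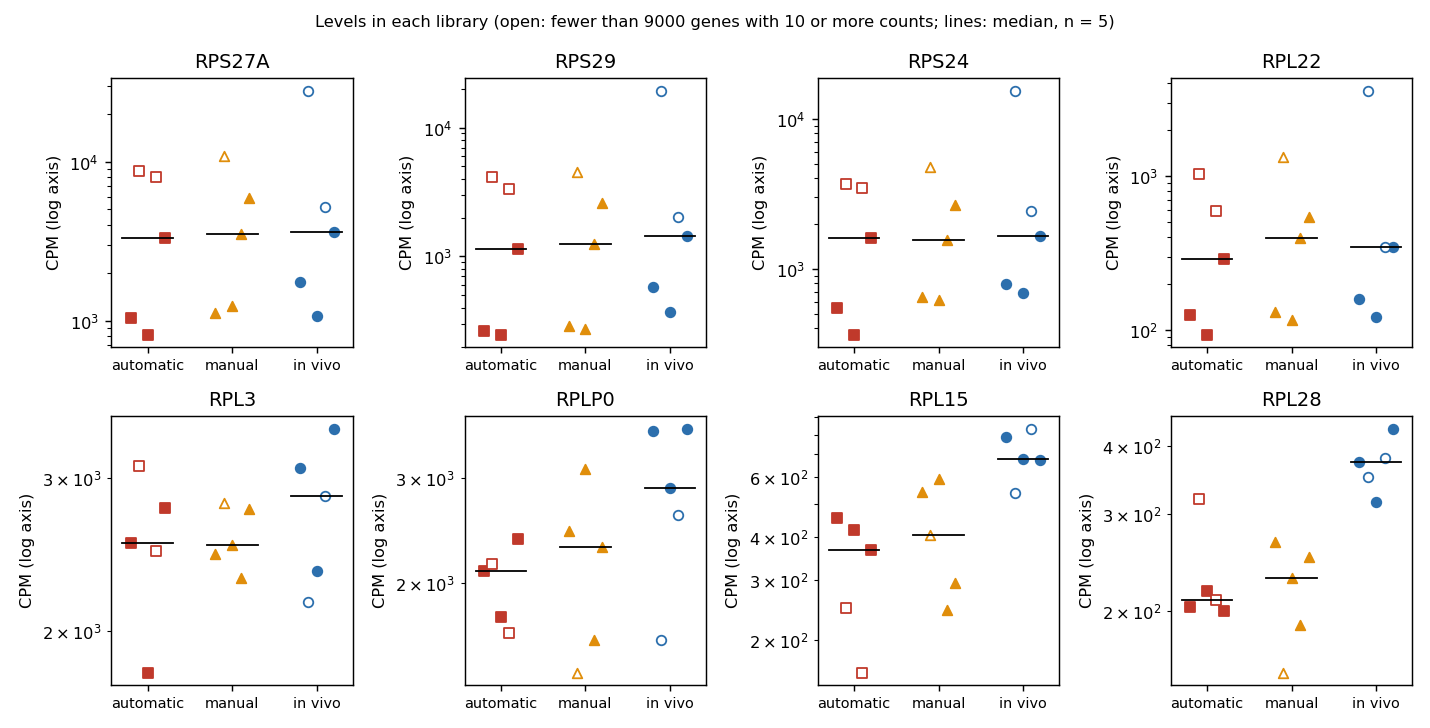
TMM-scaled CPM of 8 ribosomal protein genes in each library of the automatic, manual and in vivo groups (log axes, lines at the median of 5 libraries, open symbols for low-detection libraries). RPS27A, RPS29, RPS24 and RPL22 spread widely within each group, whereas RPL15 overlaps between in vitro and in vivo only through manual 1 and 3, and RPL28 only through automatic 2. With library size in place of TMM (not drawn), in vivo 2 lies within the in vitro range for RPL15 and RPL28.

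The median rested partly on 1 library: without in vivo 2 it was -0.172, with 40 of 65 below 0, and without the low-detection libraries it was -0.289. With library size in place of TMM it was -0.266, against 0.098 for all genes. The 15 genes with an unadjusted p under 0.05 became 7 without in vivo 4, 8 without automatic 3, 9 without in vivo 5 and 21 without in vivo 3. They were 6 with library size alone (4.58% of all genes) and 24 by voom with quality weights (12% of all genes). Over all genes such a p was reached by 710 of 11578 with every library kept. This count was 620 without in vivo 4, 758 without automatic 3, 675 without in vivo 5 and 1053 without in vivo 3, of 11715 to 11970 tested.

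Each in vitro group was also set against in vivo alone, and both comparisons share the in vivo libraries. After automatic denudation 0 ribosomal protein genes were called by edgeR (0.0173% of all genes were), 14 had an unadjusted p under 0.05, all lower, against 5.36% of all genes in either direction. The difference was below 0 for 62 of 65, against 52.4% of all genes, and its median was -0.619, against -0.064 for all genes. RPL15 and RPS9 were among 4 of 65 genes that lay below in vivo without overlap, against 1.16% of all genes, while on CPM scaled by library size alone RPL35 alone did. RPL15 had -1.09 ± 0.34 (edgeR adjusted p = 0.645). RPS13, RPL22L1 and RPL26L1 had values above 0, 0.12 ± 0.28, 0.12 ± 0.58 and 0.13 ± 0.55. Without in vivo 2 the median was -0.238, and the 14 genes became 5 without in vivo 4, 6 without automatic 1 or automatic 3, 7 without in vivo 5 and 24 without in vivo 3. They were 6 with library size alone (4.66% of all genes), 32 by voom with quality weights (13.1%) and 31 once detected genes were a covariate (8.29%). Over all genes such a p was reached by 621 of 11578 with every library kept. This count was 546 without in vivo 4, 616 without automatic 1 and 726 without automatic 3. It was 589 without in vivo 5 and 927 without in vivo 3, with 11715 to 11970 genes tested in these fits. DESeq2 and limma-voom called 0, and voom with quality weights called 5 lower, among them RPL35, RPS9 and RPSA, against 0.518% of all genes.

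After manual denudation 0 were called by edgeR (0% of all genes were), 5 had an unadjusted p under 0.05, all lower, against 3.39% of all genes in either direction. The difference was below 0 for 61 of 65, against 50.6% of all genes, and its median was -0.404, against -0.018 for all genes. DESeq2, limma-voom and voom with quality weights also called 0. RPL28 was among 3 of 65 genes that lay below in vivo without overlap, against 0.605% of all genes, and had -0.77 ± 0.29 (edgeR adjusted p = 1). On CPM scaled by library size alone 0 lay below without overlap. The 5 genes with an unadjusted p under 0.05 became 3 without in vivo 1, 4 or 5 or manual 4 and 9 without manual 2, and were 1 with library size alone (2.95% of all genes) and 10 by voom with quality weights (9.08%). RPS13, RPL22L1 and RPL7L1 had values above 0, 0.27 ± 0.28, 0.18 ± 0.58 and 0.07 ± 0.33. The median was -0.043 without in vivo 2, -0.131 without the low-detection libraries and -0.183 once detected genes entered as a covariate.

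Among related lists, 0 genes were called in vitro against in vivo. The median log2 difference was -0.273 for the other translation genes, where NPM1 had -0.49 ± 0.23 (edgeR adjusted p = 0.805). It was -0.249 for mitochondrial ribosomal proteins, where MRPL22 had -1.23 ± 0.44 and MRPL46 -1.77 ± 0.78. For ribosome biogenesis it was -0.108, with NOP10 at -1.57 ± 0.49 and RPF2 at 1.29 ± 0.54. RNA polymerase I genes had a median of 0.083, with POLR1B at -1.50 ± 0.70 and RRN3 at 1.18 ± 0.95, and mTOR and MYC pathway genes 0.121, with RHEB at 0.59 ± 0.29 and MTOR at 0.60 ± 0.64. The edgeR adjusted p of these 8 genes lay between 0.553 and 0.999.

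Automatic and manual denudation were compared to ask whether the way of removing the cumulus left a difference. No ribosomal protein gene passed edgeR's test (0 called, 0% of all genes), and 0 of 65 had an unadjusted p under 0.05, against 1.48% of all genes. DESeq2, limma-voom and voom with quality weights also called 0. Under voom with quality weights 13 had an unadjusted p under 0.05, all lower (6.57% of all genes), and 7 did, all lower, once detected genes were a covariate (3.71% of all genes). The log2 difference was below 0 for 58 of 65, against 52.9% of all genes, with medians of -0.195 for the ribosomal protein genes and -0.049 for all genes. RPL13A averaged 508 ± 159.8 CPM in automatic, 704 ± 183 CPM in manual and 834 ± 288 CPM in in vivo libraries (SD, n = 5), and differed by -0.47 ± 0.31 between automatic and manual. RPL35 averaged 366 ± 148 CPM in automatic, 523 ± 206 CPM in manual and 757 ± 243 CPM in in vivo libraries (SD, n = 5), with -0.51 ± 0.36, and RPSA had -0.35 ± 0.26. In each of these genes the automatic and manual libraries overlapped, and 0 of the 65 lay lower without overlap, against 0.527% of all genes. RPL26L1, RPS18 and RPL28 had values above 0, 0.41 ± 0.55, 0.11 ± 0.24 and 0.08 ± 0.29.

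The direction of this median changed with single libraries. It was 0.048 without manual 2, with 27 of 65 below 0, and -0.018 without automatic 3, -0.062 without automatic 1 and -0.441 without automatic 2. Once detected genes entered as a covariate it was -0.342.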

How the data were processed

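The file holds estimated counts for each gene as the authors deposited them, in whole numbers and without any scaling between libraries. Per the submitters' processing notes, FastQC, fastp and kallisto were used, and per the labels' protocols the kit was stranded and selected poly(A) RNA. Which transcripts and which genome build kallisto was given, and how molecular identifiers were treated, the sources used here do not say. For this reason coordinates, sequences and lengths are left out and levels are not compared between genes. Rounding changed 0 values, and 1 blank line was left out.

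Genes kept by filterByExpr (11578 of 17259) were tested with edgeR 4.0.16 (R 4.3.3), by its quasi-likelihood F test with TMM factors and robust dispersion, in 1 fit of all 15 libraries with a mean per group. The slope fit added the centred number of genes with 10 or more counts, in units of 1000. Calls are at a Benjamini-Hochberg adjusted p under 0.05 over all genes. Standard errors are the absolute estimate divided by the square root of F. Alternatives used DESeq2 1.42.0 and limma 3.58.1, other scalings, filters and designs, and libraries left out. Slopes in the in vitro and in vivo libraries alone were added after seeing the data.

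The tests were tried on simulated counts with known changes. The smallest chi-square per degree of freedom between libraries of a group was 191, so no library was a repeat of another in its group; pairs across groups were not compared. The members, the lists of related genes and the rule for named genes were chosen with earlier results of these data known. The rule named 11 standard members in the table, all paralogs, the called members up to 8 per direction, the 3 of smallest p per direction in each comparison, the 3 of highest and of lowest mean CPM per subunit, and the 2 of smallest p from each related list, given for the slope and for in vitro against in vivo. RPL17, RPL21 and RPS20 were named after their values were seen, as were the translation genes called in the slope, RPL13A, and the genes called by voom with quality weights. Values of a few genes that these rules name are not reported here.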

Additional observations from a re-analysis of the deposited data

Results flagged for a closer look

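Within each group of 5 libraries, a gene's highest or lowest CPM was singled out when its gap to the nearest other library exceeded 0.71 of the group's whole range. Of 117 such sets 22 were singled out. The sets came from named genes only, some of them named for their slope in these data, so they do not stand for all 67 genes. RPL30, which was not among them, also had a wide gap in in vivo 2 (4072 CPM, against 955 CPM in in vivo 4). Chance would give about 1 in 20 for independent, normally distributed values. These genes moved together and their CPM was not log-scaled, so that rate cannot be set against the 22. In 16 of the 22 the library was in vivo 2, the highest of its group. The gap was 0.936 of the range for RPL22, 0.913 for RPS29, 0.883 for RPS24, 0.848 for RPS27A, 0.819 for RPLP1, 0.818 for RPS25, 0.815 for RPL38, 0.807 for RPL34 and 0.796 for RPL35A. It was 0.791 for RPL22L1, 0.782 for RPL39, 0.781 for RPS27L, 0.757 for RPS3A, 0.730 for RPL26L1, 0.725 for RPS28 and 0.720 for RPLP2. In RPS18 the same library was the lowest of its group, with a gap of 0.751.

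In the automatic group RPL3L had counts in automatic 2 alone, so that its gap was 1, RPL28 was highest in automatic 2 (0.854) and RPS4Y1 lowest in automatic 4 (0.741). In the manual group RPL39 (0.890) and RPS27L (0.720) were highest in manual 2.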

How the results depend on the processing

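Over 1373 values of named genes under other settings, 1251 kept their direction and their side of the threshold. Many of these settings left out 1 library, and of the 653 values from the remaining settings 561 did so. A value that was not called in either setting also counts as kept. The calls between groups stayed at 0 except by voom with quality weights, with 6 in vitro against in vivo and 5 for automatic against in vivo. The slope called 19 genes in the in vitro libraries alone, 0 in the in vivo libraries alone, 0 without the low-detection libraries and 27 lower with 2 higher under library size. Its median was -0.137 under library size, -0.323 by voom with quality weights and -0.371 without the low-detection libraries, and -0.331 to -0.240 when 1 library was left out, with 35 to 39 genes called. Leaving out 1 library gave medians of -0.659 to -0.172 in vitro against in vivo, -0.770 to -0.238 for automatic against in vivo, -0.607 to -0.043 for manual against in vivo and -0.441 to 0.048 for automatic against manual. The causes of these shifts were not tested.

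Libraries with the same number are not tied by the labels, so the numbers were not taken as pairs. Over 15 same-number pairs r of their deviations was 0.013 to 0.441, with a median of 0.153. Over pairs of different number it was -0.295 to 0.367. Of 15 libraries 8 correlated best with a library of their own number, though most possible partners bore another number. Whether the numbers mark pairs was not tested. With the replicate block the slope called 0 ribosomal protein genes against 37, with 12 at an unadjusted p under 0.05 and a median of -0.121. Over all 11578 genes the slope also called 0 with the block, against 7.86% without it. An unadjusted p under 0.05 was reached by 787 of all genes with the block, against 23.8% without it. The median slope of all genes was 0.233 with the block. The 4 comparisons between groups called 0 ribosomal protein genes, as without the block. An unadjusted p under 0.05 was reached with the block, against without it, by 32 against 15 genes in vitro against in vivo, 40 against 14 for automatic against in vivo, 18 against 5 for manual against in vivo and 5 against 0 for automatic against manual. Over all 11578 genes such a p was reached with the block by 749, 732, 510 and 244 genes in the same order. Without the block it was reached by 6.13%, 5.36%, 3.39% and 1.48% of them. Library 2 is a low-detection library in all 3 groups. With the block the slopes of RPL7L1 (0.053), RPL8 (-0.12), RPLP0 (-0.10), RPS3 (-0.049) and RPSA (-0.10) changed sign.

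Other values also changed sign, and none was called in either setting. By voom with quality weights these were RPL26L1 (-0.27) and RPL28 (-0.13) in automatic against manual, RPL26L1 (-0.065) and RPS13 (-0.060) in automatic against in vivo, RPL7L1 (-0.095) in manual against in vivo, and the slope of RPSA (-0.074, and -0.018 by limma-voom). Without the low-detection libraries they were RPL26L1 (-0.042) and RPL28 (-0.16) in automatic against manual, RPS13 (-0.0039) in automatic against in vivo, RPL7L1 (-0.33) in manual against in vivo, and the slopes of RPLP0 (-0.15), RPS3 (-0.026) and RPSA (-0.22). Library size alone turned the slopes of RPL3 (0.089), RPL7L1 (0.063) and RPS4Y1 (0.12), the in vivo libraries alone that of RPL3 (0.036), the in vitro libraries alone that of RPS4Y1 (0.055), and a minimum of 50 counts that of RPS4Y1 (0.013). Leaving out 1 library gave ranges across 0 for RPL28 (-0.060 to 0.18) and RPS18 (-0.0036 to 0.20) in automatic against manual, RPL22L1 (-0.086 to 0.98) in vitro against in vivo, RPL22L1 (-0.29 to 0.93) and RPL26L1 (-0.20 to 0.68) in automatic against in vivo, RPL22L1 (-0.30 to 1.03) and RPL7L1 (-0.19 to 0.24) in manual against in vivo, and the slopes of RPS4Y1 (-0.059 to 0.050) and RPSA (-0.027 to 0.058).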
